A study of Mus musculus with 170 samples.

Results

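Histone genes of the mouse were followed in the lung and the heart after smoke condensates, the bacterial endotoxin LPS or saline had been placed in the airways. Members were the gene symbols beginning with Hist1h to Hist4h, H2af, H3f3 or H1f whose mean reached 0.5 CPM (counts scaled to a common library size) in either organ, with the probes of 1 gene summed. Of 61 symbols with such a name, 52 passed, out of 21450 symbols in the table. Members whose symbol begins with Hist were classed as replication-dependent and the others as replication-independent, by name alone. There were 43 replication-dependent genes, namely 5 for H1, 9 for H2A, 13 for H2B, 7 for H3 and 9 for H4. The 9 replication-independent genes were H1f0, H1fx, H2afj, H2afv, H2afx, H2afy, H2afz, H3f3a and H3f3b. Just inside the limit lay H2afj, at 0.785 CPM in lung, and Hist2h2be, at 1.27 CPM in heart, and just outside it lay Hist1h1t, at 0.204 CPM in lung. The replication-dependent members sat on chromosome 13 (32 genes), 3 (8 genes), 11 (2 genes) and 6 (1 gene).

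Nucleosomes wrap DNA around an octamer of the core histones H2A, H2B, H3 and H4, and the linker histone H1 binds where the DNA enters and leaves. Replication-dependent histone genes lie in clusters and are transcribed mainly in S phase, when new DNA has to be packaged. Their mRNAs normally end in a stem-loop bound by the protein SLBP in place of a poly(A) tail. Replication-independent variants are made throughout the cell cycle and in cells that no longer divide. Examples are H3.3, encoded by H3f3a and H3f3b, H2A.Z, encoded by H2afz and H2afv, macroH2A from H2afy, the DNA-damage variant H2A.X from H2afx, and the linker histone H1.0 from H1f0.

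The mice were female CD-1, an outbred stock, and received 50 µL of saline by oropharyngeal aspiration, alone, with LPS, or with condensed smoke particles at 2 mg/mL. Smoke came from 5 fuels (eucalyptus, peat, pine, pine needles, red oak), and each fuel had been burned both flaming and smoldering. Lungs were taken after 4 h and 24 h from the 10 smoke groups (n = 6 each), from LPS (n = 4) and from saline (n = 6). Hearts were taken at 24 h from the RedOakFlame, PeatFlame, RedOakSmolder, PeatSmolder and saline groups (n = 6 each), and 30 mice gave both organs. The 170 libraries held 4426180 to 8046021 counts, and 6 of the 24 h lung libraries had counts for fewer than 13000 genes. Every smoke was compared with the same saline mice of its organ and time, so these comparisons share their controls. In whole-organ RNA, fewer cells of a type and less RNA per cell cannot be told apart.

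The stem-loop is the feature that sets the replication-dependent mRNAs apart, so it is shown here for members with a match among those that the results name. Capitals mark a match to the consensus GG, 2 free bases, CTTTT, 1 free base, AG, 2 free bases and CC on the sense strand of the annotated transcript (GENCODE vM21, build GRCm38), with 5 bases on either side in lower case.
Hist1h2bk: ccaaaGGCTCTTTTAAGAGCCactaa
Hist1h2bb: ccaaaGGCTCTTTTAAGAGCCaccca
Hist1h3c: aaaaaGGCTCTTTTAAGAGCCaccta
Hist1h3a: ccaaaGGCTCTTTTCAGAGCCacaca
Hist1h2ab: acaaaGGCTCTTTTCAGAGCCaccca
Hist1h4n: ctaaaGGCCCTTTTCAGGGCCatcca
Hist1h4i: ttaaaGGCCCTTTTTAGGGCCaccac
Hist4h4: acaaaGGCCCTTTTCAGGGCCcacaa
H2afx: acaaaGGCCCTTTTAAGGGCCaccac
These letters were found in the annotated 3′ end of 28 of the 43 replication-dependent members (65.1%), of 1 of the 9 replication-independent ones, H2afx, and of 61 of 21877 protein-coding genes (0.279%). Replication-dependent members that the results name and that had no match include Hist1h1b, Hist1h2ak, Hist1h2bc, Hist1h3g, Hist2h2bb and Hist2h3b. Several annotated transcripts without a match were short, such as Hist1h2ak (393 bases) and Hist2h2bb (381 bases), and may lack the 3′ end. A missing match therefore does not show that the mRNA lacks a stem-loop. Comparisons below of members with and without a match carry this limit too. The annotated transcript ran on for 23 bases after the match in Hist1h2bb and 30 bases in Hist1h2bk, but for 822 bases in H2afx and 2445 bases in Hist4h4. The positions of these transcripts are chr13:22035870-22036345 (+) for Hist1h2bk, chr13:23746734-23747241 (+) for Hist1h2bb, chr13:23744973-23745602 (-) for Hist1h3c, chr6:136801553-136804415 (-) for Hist4h4 and chr9:44334694-44336077 (+) for H2afx.

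Promoters are shown for a pair of H2B genes that fell together in heart, an H3 gene of the same cluster on chromosome 13, and H3f3b as a replication-independent gene. Each runs from 250 bases before to 50 bases after the start (RefSeq, build GRCm38.p6), at chr13:22035571-22035870 (+) for Hist1h2bk, chr13:23746484-23746783 (+) for Hist1h2bb, chr13:23745472-23745771 (-) for Hist1h3c and chr11:116024455-116024754 (-) for H3f3b. Capitals mark the octamer ATTTGCAT, the box CCAAT and the box TATAAA, each searched on both strands.
Hist1h2bk: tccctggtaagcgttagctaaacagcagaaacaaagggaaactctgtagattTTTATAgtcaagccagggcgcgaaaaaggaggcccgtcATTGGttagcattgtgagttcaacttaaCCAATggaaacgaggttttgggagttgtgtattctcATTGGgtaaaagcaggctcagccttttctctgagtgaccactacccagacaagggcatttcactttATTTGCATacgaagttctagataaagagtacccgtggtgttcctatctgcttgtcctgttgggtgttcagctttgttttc
Hist1h2bb: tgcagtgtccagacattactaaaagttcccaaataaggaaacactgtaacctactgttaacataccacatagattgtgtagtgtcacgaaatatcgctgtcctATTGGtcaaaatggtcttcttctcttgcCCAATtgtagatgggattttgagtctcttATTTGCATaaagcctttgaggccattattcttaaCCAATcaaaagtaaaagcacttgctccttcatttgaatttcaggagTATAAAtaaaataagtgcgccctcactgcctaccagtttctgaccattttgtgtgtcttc
Hist1h3c: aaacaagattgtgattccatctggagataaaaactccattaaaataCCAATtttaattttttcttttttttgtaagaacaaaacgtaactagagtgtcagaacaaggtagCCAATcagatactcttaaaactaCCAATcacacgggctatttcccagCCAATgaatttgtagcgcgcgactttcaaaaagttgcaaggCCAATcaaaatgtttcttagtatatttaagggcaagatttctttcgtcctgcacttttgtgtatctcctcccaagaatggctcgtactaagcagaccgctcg
H3f3b: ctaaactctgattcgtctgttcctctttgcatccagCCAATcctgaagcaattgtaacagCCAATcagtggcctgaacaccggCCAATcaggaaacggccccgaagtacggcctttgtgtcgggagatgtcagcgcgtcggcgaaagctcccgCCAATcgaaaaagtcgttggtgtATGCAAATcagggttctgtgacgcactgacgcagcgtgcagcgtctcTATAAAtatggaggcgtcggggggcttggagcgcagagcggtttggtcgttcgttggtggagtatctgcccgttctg
Of the 52 members, 47 had such a promoter entry. The octamer, a known element of H2B promoters, was present in 7 of 39 replication-dependent promoters (17.9%), which were 4 of 11 H2B and 3 of 9 H2A promoters, and in 1 of 8 replication-independent ones (12.5%). Among all 27025 promoters 1.75% held it. CCAAT was in 32 of the 39 replication-dependent promoters and 5 of the 8 others, against 37.9% of all promoters, and among H4 promoters it was in 1 of 8. TATAAA was in 24 of the 39 and 1 of the 8, against 14.2% of all promoters.

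Many replication-dependent genes are near-copies of one another. At least 1 window of 50 bases was shared between the annotated transcripts of 39 of the 52 members and another member, and 31 members shared at least 20% of their windows, among them Hist2h3b (79.7%), Hist1h2bk (74.2%), Hist1h3a (49.5%), Hist1h2bb (40.1%) and Hist1h3c (37.2%). Which copy a count came from is therefore uncertain for these genes. No window shared with another member was found in Hist4h4, Hist1h1b, Hist2h2bb, H2afv, H2afz, H2afy, H3f3a or H3f3b. Sharing was recorded between members only, so copies outside the 52 are not covered.

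In the heart, every called change of a histone mRNA after flaming smoke was a decrease. Nearly all of them were in replication-dependent genes, which also made up most of the members tested. A gene was called where its adjusted p was under 0.05 by edgeR's quasi-likelihood F test with Benjamini-Hochberg adjustment over all genes tested. After red oak flaming smoke 13 of the 47 members tested in heart were called against saline, and all 13 fell. They were 12 of 39 replication-dependent genes and 1 of 8 replication-independent genes. Of all 11179 genes tested, 12% were called in that comparison and 6.69% were called lower. An unadjusted p under 0.05 was found for 32 of the 47 members, against 27.5% of all genes. The median log2 fold change over the members was -0.73, against 0.03 over all genes, and it was -0.79 over the replication-dependent and -0.16 over the replication-independent members. Values lay below 0 for 38 of the 39 replication-dependent members, the exception being Hist2h2be at 0.56, which was not called. The p-values measure the spread between mice.

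Summed over the replication-dependent members, red oak flaming hearts held between 620 and 984 CPM with a median of 790, and peat flaming hearts between 668 and 1103 CPM with a median of 849. Red oak smoldering hearts held 939 to 1477 CPM with a median of 1303, peat smoldering hearts 857 to 1233 CPM with a median of 1033, and saline hearts 785 to 1744 CPM with a median of 1016. The flaming hearts had the lowest medians and the ranges overlapped. Among the saline hearts, replicates 1 and 2 stood far above the rest at 1649 and 1744 CPM, and the other 4 lay between 785 and 1153 CPM. The probe of 1 H2B gene, Hist1h2bc, gave 33.6% of this sum in heart; probes may differ in yield, so shares of a sum and the highest mean of a type describe probe counts and do not rank mRNA amounts. The replication-independent sum had medians of 648 CPM after red oak flaming, 663 after peat flaming, 813 after red oak smoldering, 639 after peat smoldering and 802 in saline, so that smoldering gave the higher median for red oak only.

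**Figure D1:**
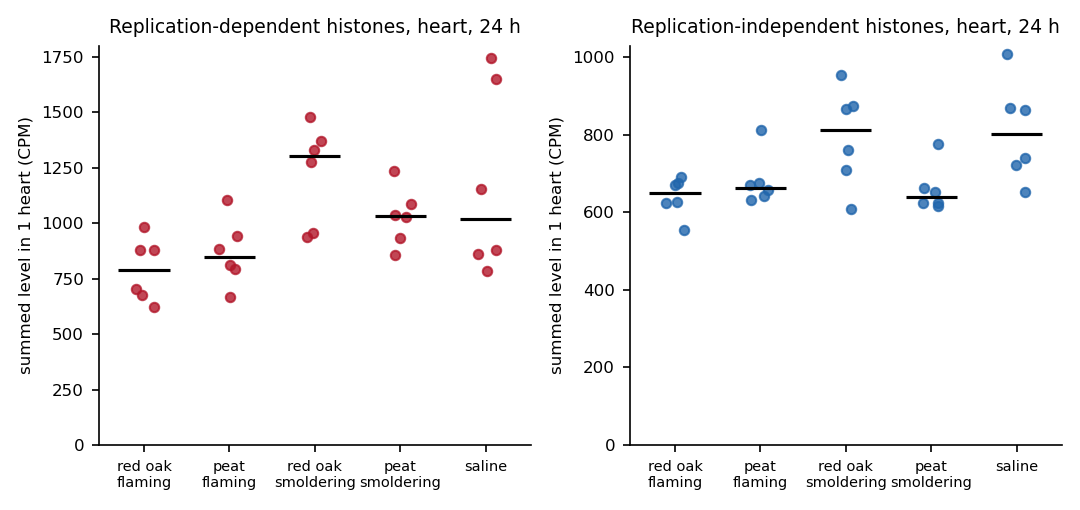
Summed level of the replication-dependent (left) and replication-independent (right) histone genes in each heart at 24 h, in CPM, by treatment; each point is 1 mouse and the black bar is the median of 6. Replication-dependent medians were 790 and 849 CPM in the flaming groups, 1303 and 1033 CPM in the smoldering groups and 1016 CPM in saline, with overlapping ranges.

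Among the H4 genes, Hist4h4, a lone H4 gene on chromosome 6 whose probe had the highest mean count of the H4 members in both organs, lay at 44.1 to 81.4 CPM in red oak flaming hearts (median 68.3) and at 71.3 to 168.1 CPM in saline hearts (median 112.6). The ranges overlapped at their edges, and 3 of the 6 exposed hearts were below every saline heart. The log2 fold change was -0.83 ± 0.22 (SE; adjusted p = 0.0136, edgeR quasi-likelihood F test). Hist2h4, an H4 gene on chromosome 3, had 9.63 to 20.2 CPM with a median of 11.99 in red oak flaming hearts, against 17.1 to 38.7 CPM with a median of 22.2 in saline, a log2 fold change of -0.94 ± 0.27 (edgeR adjusted p = 0.0212). Hist1h4n had 4.08 to 8.45 CPM with a median of 5.64, against 6.23 to 22.3 CPM with a median of 9.69 in saline, a change of -1.01 ± 0.30 (edgeR adjusted p = 0.0246). In both genes 4 of the 6 exposed hearts were below every saline heart. Together with Hist1h4i, 4 of the 9 H4 genes fell, and the median over the H4 genes was -0.88.

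Among genes for H2A and H2B, the dimer that is exchanged most readily from nucleosomes, 3 of 7 H2A genes and 4 of 12 H2B genes fell after red oak flaming smoke, and both types had a median log2 fold change of -0.71. Hist1h2ak, an H2A gene, lay at 16.2 to 29.7 CPM in red oak flaming hearts (median 20.1) and at 24.4 to 57.4 CPM in saline hearts (median 30.5). Of the 6 exposed hearts 4 were below all saline hearts, and the change was -0.73 ± 0.19 (edgeR adjusted p = 0.0136). Hist1h2bk lay at 18.0 to 36.3 CPM (median 25.1) in red oak flaming hearts and at 24.2 to 75.5 CPM (median 35.02) in saline, a change of -0.79 ± 0.21 (edgeR adjusted p = 0.0158). Hist2h2bb lay at 4.32 to 10.9 CPM (median 6.92), against 7.28 to 24.5 CPM (median 12.01) in saline, a change of -0.88 ± 0.25 (edgeR adjusted p = 0.0212). Exposed hearts sat low in both H2B genes, with 2 of 6 for Hist1h2bk and 4 of 6 for Hist2h2bb below every saline heart. The other called genes of these types were Hist1h2ab, Hist2h2aa1, Hist1h2bb and Hist1h2bg.

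None of the 6 replication-dependent H3 genes tested in heart was called after red oak flaming smoke by edgeR, although their median log2 fold change was -0.91 and 5 of them had an unadjusted p under 0.05; the smallest adjusted p was 0.0519, for Hist2h3b. This gene had the highest mean count in heart among the replication-dependent H3 genes. It lay at 12.9 to 27.7 CPM (median 16.95) after red oak flaming, 10.9 to 18.0 CPM (median 13.4) after peat flaming, 20.4 to 52.3 CPM (median 35.6) after red oak smoldering, 17.8 to 56.3 CPM (median 23.2) after peat smoldering and 15.5 to 81.2 CPM (median 28.4) in saline. Of the linker histones only Hist1h1b, encoding H1.5, was called, at 1.15 to 2.92 CPM (median 1.70) in red oak flaming hearts and 1.11 to 14.1 CPM (median 4.76) in saline, a change of -1.61 ± 0.51 (edgeR adjusted p = 0.0370). No exposed heart lay below all saline hearts for it, since the lowest saline heart was the lowest of all 12. Hist1h1e, whose probe had the highest mean count of the linker histone genes in both organs, had a log2 fold change of -0.10 and Hist1h1c one of -0.03.

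Of the replication-independent genes, H2afv, encoding the H2A.Z.2 variant, fell. It lay at 162 to 225 CPM (median 205) in red oak flaming hearts and at 213 to 307 CPM (median 275) in saline hearts, and the change was -0.42 ± 0.12 (edgeR adjusted p = 0.0256). H3f3a, an H3.3 gene whose probe gave 49.2% of the replication-independent sum in heart, had 256 to 354 CPM (median 323) in red oak flaming hearts and 302 to 583 CPM (median 407) in saline hearts, a change of -0.41 that missed the threshold (adjusted p = 0.0505). H2afz, at -0.56, H1f0, at 0.21, and H1fx, at 0.43, were not called. H2afy had medians of 60.7 CPM after red oak flaming and 60.3 CPM in saline.

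After peat flaming smoke the values lay as low, but 1 member was called. The median log2 fold change was -0.64 over all members and -0.83 over the replication-dependent ones, 38 of 39 of which were below 0, and 28 of the 47 members had an unadjusted p under 0.05, against 11.7% of all genes. The called member was Hist1h2bk, at 17.1 to 27.95 CPM (median 20.1) in peat flaming hearts against 24.2 to 75.5 CPM (median 35.02) in saline hearts. With 5 of 6 exposed hearts below every saline heart, its change was -1.09 ± 0.22 (edgeR adjusted p = 0.0475), and it was the only gene called lower (0.00895% of all genes) among the 0.0447% called. The call was lost without any 1 of the 6 peat flaming hearts, and DESeq2 called 9 members. Fits that also lost the call include those without saline heart 1, 2, 4 or 5 and those without red oak flaming heart 1 or 3. The fit with the count of detected genes as a covariate lost it too. The H3 genes had a median of -1.36, and for Hist1h3a all 6 peat flaming hearts, at 2.46 to 4.88 CPM, were below the saline hearts, at 7.76 to 31.5 CPM, without the adjusted p passing the threshold.

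After smoldering smoke 1 member was called in all. Red oak smoldering smoke gave a median log2 fold change of 0.05 over the members and no call against saline by edgeR or DESeq2 (0.0% of all genes by edgeR), and no member had an unadjusted p under 0.05 in the edgeR fit, against 6.26% of all genes. Peat smoldering smoke gave a median of -0.21 with 40 of 47 members below 0 and 1 call, in a comparison where 4.29% of all genes were called and 1.91% were called lower. This was H3f3a, at 259 to 374 CPM (median 292) in peat smoldering hearts and 302 to 583 CPM (median 407) in saline hearts. Of the exposed hearts 5 of 6 were below every saline heart, and the change was -0.47 ± 0.14 (edgeR adjusted p = 0.0478). It was not called without saline heart 1, 2 or 4 or without peat smoldering heart 1, 3, 4, 5 or 6. Averaged over the 4 smokes, 1 member was called against saline, Hist1h1b at -1.45 ± 0.37 (edgeR adjusted p = 0.0381), where 2.33% of all genes were called and 0.939% were called lower; none was called without saline heart 1, 2 or 4, peat flaming heart 4 or peat smoldering heart 4.

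Set directly against smoldering smoke, flaming smoke lowered 2 histone genes in heart, and these were the only genes called lower (0.0179%) among the 0.0358% of genes called in that comparison. Hist1h2bk lay at 17.1 to 36.3 CPM (median 21.1) in the 12 flaming hearts and at 27.9 to 55.7 CPM (median 41.6) in the 12 smoldering hearts, a change of -0.82 ± 0.15 (edgeR adjusted p = 0.0193). Hist1h2bb, another H2B gene of the chromosome 13 cluster, lay at 2.92 to 10.01 CPM (median 6.07) in flaming hearts and at 7.01 to 20.1 CPM (median 12.3) in smoldering hearts, a change of -0.99 ± 0.18 (edgeR adjusted p = 0.0193). For each gene 9 of the 12 flaming hearts were below all 12 smoldering hearts. The promoters of both are printed above. In this comparison, replication-dependent members with the octamer in the promoter had a median change of -0.69 (7 genes). Those with a promoter entry but no octamer had -0.70 (28 genes).

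The other members leaned the same way without passing the threshold. The median change between flaming and smoldering hearts was -0.63 over the members, against 0.01 over all genes, and 44 of 47 members were below 0. An unadjusted p under 0.05 was found for 33 of the 47, against 17% of all genes. By type the median was -1.01 for H1, -0.48 for H2A, -0.71 for H2B, -1.05 for H3 and -0.66 for H4 among replication-dependent genes, and -0.08 over the replication-independent ones. Hist1h3c, an H3 gene, had medians of 11.9 CPM after red oak flaming, 8.97 after peat flaming, 26.3 after red oak smoldering, 20.9 after peat smoldering and 20.5 in saline, and its change of -1.07 ± 0.22 had an adjusted p of 0.0737. Replication-dependent members with a stem-loop match in the annotated transcript had a median of -0.67 (25 genes) and those without one -0.74 (14 genes). Those sharing under 20% of their windows with another member had -0.66 (12 genes) against -0.69 (27 genes).

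**Figure D2:**
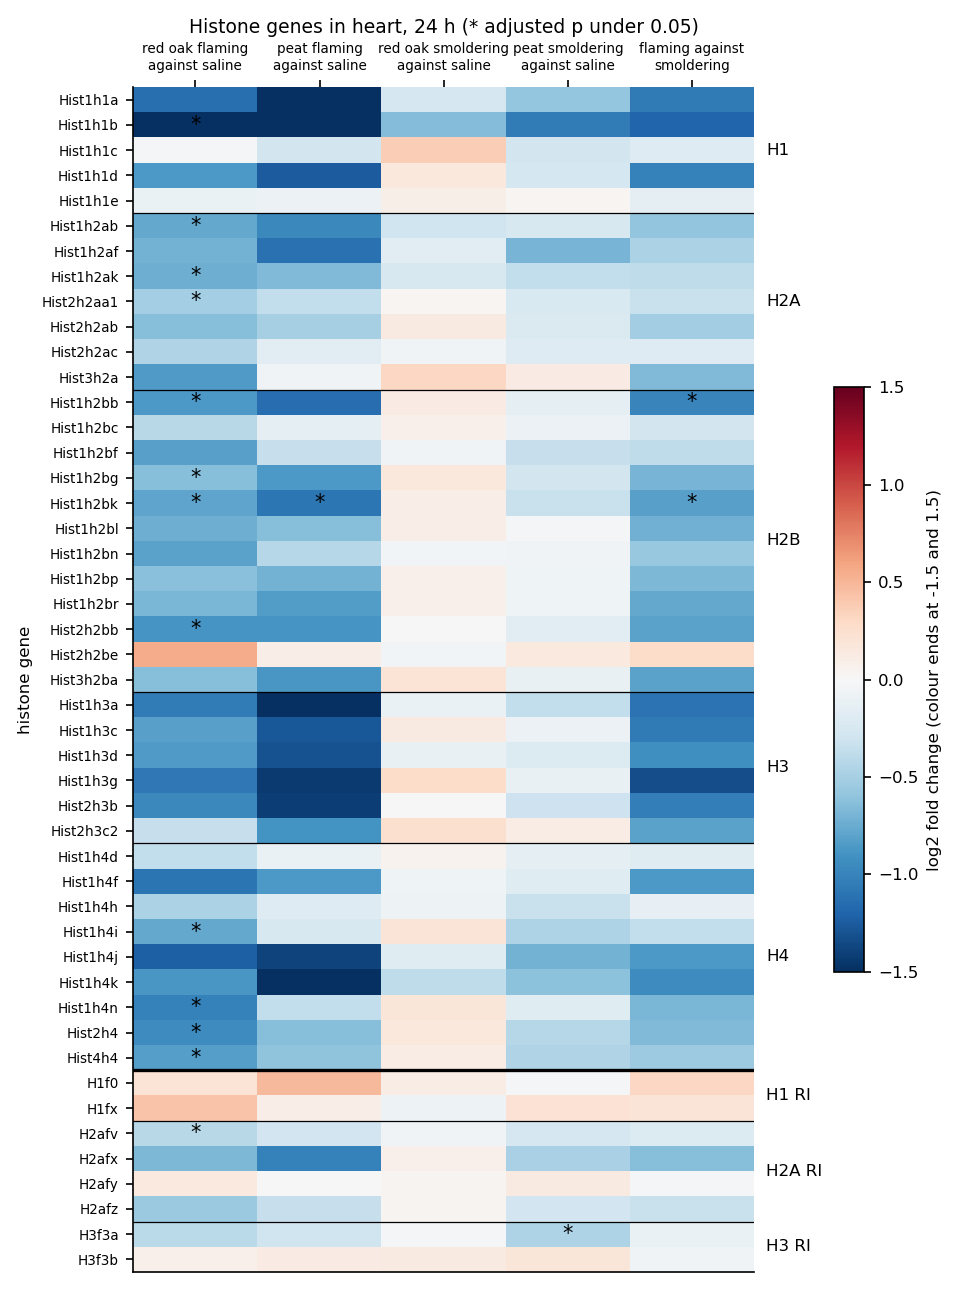
Log2 fold change of each of the 47 histone genes tested in heart, for 4 smokes against saline and for flaming against smoldering smoke; rows are genes by histone type, RI marks replication-independent genes, blue is lower and red higher, and the colour scale ends at 1.5 in either direction. Blue fills the 2 flaming columns and the last column, and the peat smoldering column is mostly blue too (40 of 47 below 0, median -0.21). Asterisks (adjusted p under 0.05) number 13 under red oak flaming, 1 under peat flaming, 1 under peat smoldering and 2 in the last column.

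The part of other gene groups in the histone result was not tested, and their values in the same hearts were as follows. Of 30 genes of S phase and proliferation, 25 were tested in heart; between flaming and smoldering smoke 23 of them were below 0 with a median of -0.52 and none was called, and against saline red oak flaming smoke lowered 2, Gmnn at -0.56 and Pcna at -0.27. Their summed level had medians of 756 CPM in flaming, 833 CPM in smoldering and 905 CPM in saline hearts. All 7 erythroid markers lay lower in flaming than in smoldering hearts, with a median of -1.14 and none called, and their sums ranged over 136.1 to 1203 CPM in flaming, 146 to 1474 CPM in smoldering and 176 to 722 CPM in saline hearts. Macrophage markers Csf1r (1.07) and Cd68 (0.73) rose after red oak flaming smoke, 2 of 4 such genes tested, and the summed macrophage level had medians of 36.3 CPM in flaming, 33.9 CPM in smoldering and 24.9 CPM in saline hearts. Red oak flaming heart 6 held 139.7 CPM of lung epithelial markers, against at most 22.6 CPM in any other heart. Of 15 genes of histone mRNA processing tested none was called there, and of 24 histone chaperone and exchange genes Vps72 (-0.40), Asf1a (-0.51) and Znhit1 (-0.34) fell and Cabin1 (0.34) rose. The cardiac muscle marker Myl2 fell by 0.66 after red oak flaming smoke, the only 1 of 10 such genes called there, and none was called between flaming and smoldering hearts (median 0.17). The number of genes with a count had a median of 13725 in flaming, 13679.5 in smoldering and 13382 in saline hearts.

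The number of heart calls rested on few mice, while the member medians given here stayed below 0. Hearts were left out 1 at a time. Saline hearts 1 and 2 were therefore never left out together, and whether the direction against saline would hold without both was not tested. Without saline heart 1 or saline heart 2, those with the high sums, 1 member was called after red oak flaming smoke instead of 13, and the member median was -0.65 without the first and -0.49 without the second. There were 2 calls without red oak flaming heart 2, 6 without its heart 6, 8 without saline heart 4, and 22, 19 and 18 without saline hearts 3, 5 and 6. When the count of detected genes was a covariate, a setting chosen after the data were seen, no member was called and the median was -0.43, while DESeq2 called 19. Between flaming and smoldering hearts, where saline does not enter, the 2 calls became 0 without red oak flaming heart 2, peat flaming heart 5 or 6, red oak smoldering heart 3 or peat smoldering heart 1 or 6. They became 10 without saline heart 2, which still shares in the estimate of the spread, 7 without red oak smoldering heart 5, 4 without its heart 6 and 14 with DESeq2, and the member median stayed between -0.53 and -0.68 over all settings.

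Between organs of the same 30 mice, 44 of 51 histone genes tested differed, 18 higher and 26 lower in heart than in lung. This share of 86.3% was near the 88.2% of all genes called (39.2% higher and 49% lower), and what follows describes which histone genes were high in which organ. Levels in this comparison are in CPM on a scale common to both organs. The fit did not pair the organs of a mouse, and a fit that paired them is given in the closing section. Hist1h2bc lay at 246 to 731 CPM (median 417) in heart and 0.499 to 235 CPM (median 72.9) in lung, and was higher in heart in 30 of 30 mice, with a log2 difference of 2.75 ± 0.32 (edgeR adjusted p = 1.67e-11). H2afv lay at 197 to 418 CPM (median 276) in heart and 21.5 to 123.6 CPM (median 59.1) in lung, a difference of 2.33 ± 0.11 (edgeR adjusted p = 2.16e-26). H3f3a and H1f0 followed, at 2.07 ± 0.21 and 1.96 ± 0.25, and each of these 3 replication-independent genes was higher in heart in every mouse.

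Most replication-dependent H3 genes were lower in heart. Hist2h3b lay at 13.3 to 102.8 CPM (median 27.1) in heart and 88.1 to 1067 CPM (median 244) in lung, was lower in heart in 30 of 30 mice, and had a log2 difference of -3.35 ± 0.21 (edgeR adjusted p = 1.58e-21). Hist1h3g, at -3.04 ± 0.28, and Hist2h3c2, at -2.99 ± 0.24, were likewise lower in heart in all 30 mice. Of the 7 replication-dependent H3 genes 6 were lower in heart, with a median of -2.05, and Hist1h3d (0.83) was the exception, while H2B genes had 8 called higher and 4 lower, with a median of 0.76. The H2A gene Hist1h2ao had the most negative difference, -3.41 ± 0.41, but was near the detection limit, with medians of 0 CPM in heart and 1.91 CPM in lung. Over all genes the median difference was -0.28.

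The members not called between the organs were H2afz, Hist1h1d, Hist1h2ab, Hist1h4f, Hist2h2ac, Hist2h2bb and Hist4h4. The S phase and proliferation list was lower in heart, with 19 of 30 genes called lower and 6 higher and a median of -1.36, and its part in the histone differences was not tested. Lung epithelial markers were lower in heart for 7 of 7 genes tested (median -10.3) and cardiac muscle markers higher for 10 of 10 (median 6.91), so the organs were as labelled.

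**Figure D3:**
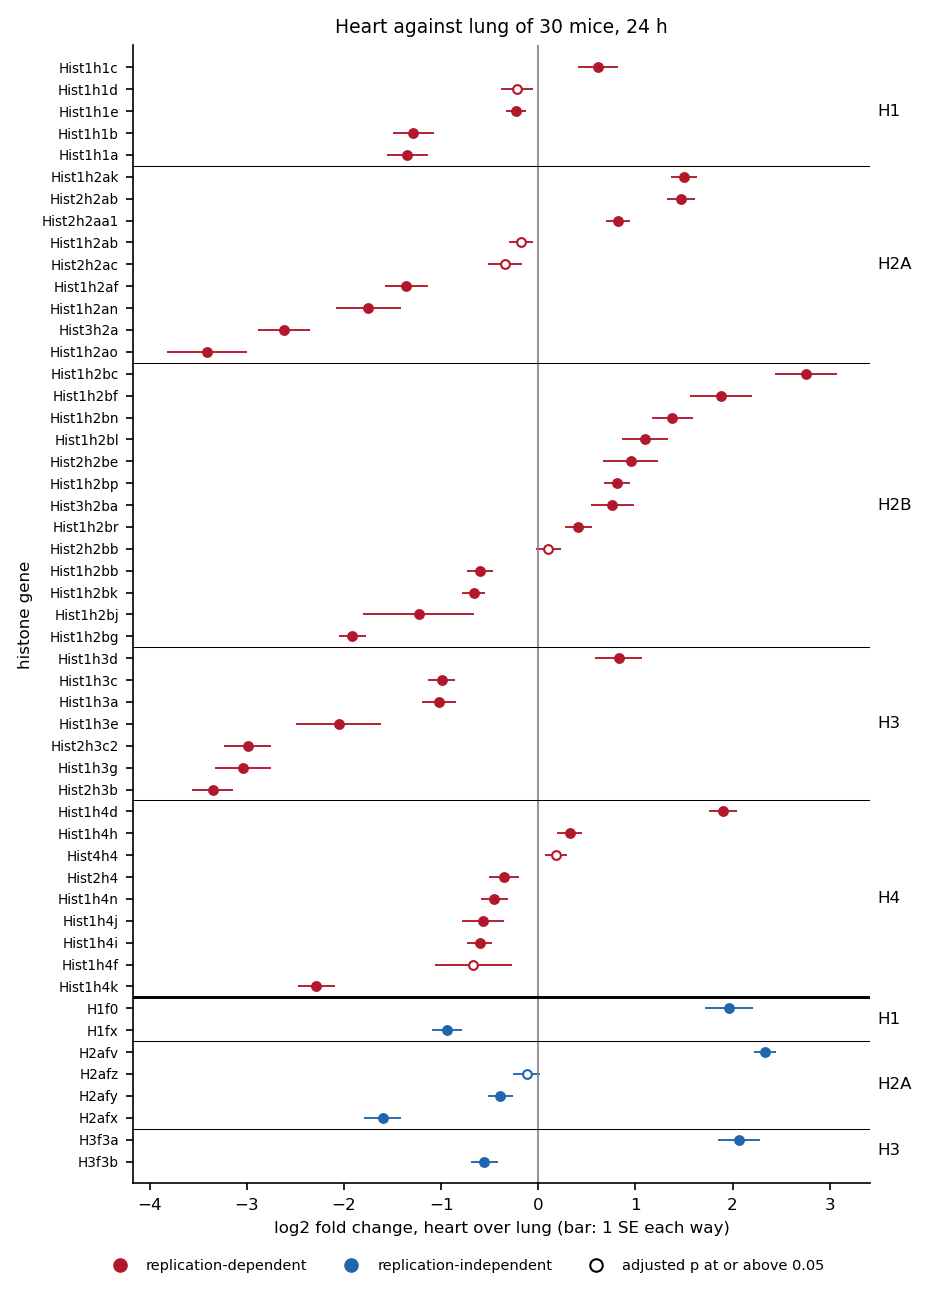
Log2 difference of each histone gene between heart and lung of the same 30 mice at 24 h (heart over lung; positive is higher in heart); points are estimates, bars are 1 SE each way, red marks replication-dependent and blue replication-independent genes, and open points had an adjusted p at or above 0.05. Of the replication-dependent H3 genes 6 of 7 lie to the left, down to -3.35 (Hist2h3b), and Hist1h2bc lies farthest to the right at 2.75.

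In the lung, replication-dependent histone mRNAs were higher at 24 h than at 4 h, and their summed median was higher at 24 h in each of the 12 treatments. This comparison of times, averaged over the 12 treatments with the library plate in the fit, was chosen after the data were seen. Of the 52 members 25 were called and all 25 rose, 24 of 43 replication-dependent genes and 1 of 9 replication-independent genes. Of all 14458 genes tested 6.44% were called and 4.05% were called higher. The median log2 fold change was 0.56 over the members against -0.01 over all genes, 0.62 over the replication-dependent genes, of which 42 of 43 were above 0, and 0.13 over the others. The lungs of each time came from different mice.

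The summed replication-dependent level had a median of 1648 CPM at 24 h (1074 to 3180 over 70 lungs) and 1053 CPM at 4 h (734 to 1804 over 70 lungs), and the 24 h median was the higher one in 12 of 12 treatments. It was 2580 CPM at 24 h and 896 CPM at 4 h for eucalyptus smoldering smoke, where the times lay farthest apart, 1254 and 1127 CPM for pine flaming smoke, where they lay closest, and 1576 and 1079 CPM for saline. The eucalyptus smoldering lungs of 24 h included libraries with counts for only 13317, 13135 and 11690 genes. The replication-independent sum had medians of 552 CPM at 24 h and 556 CPM at 4 h and was higher at 24 h in 4 of 12 treatments.

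**Figure D4:**
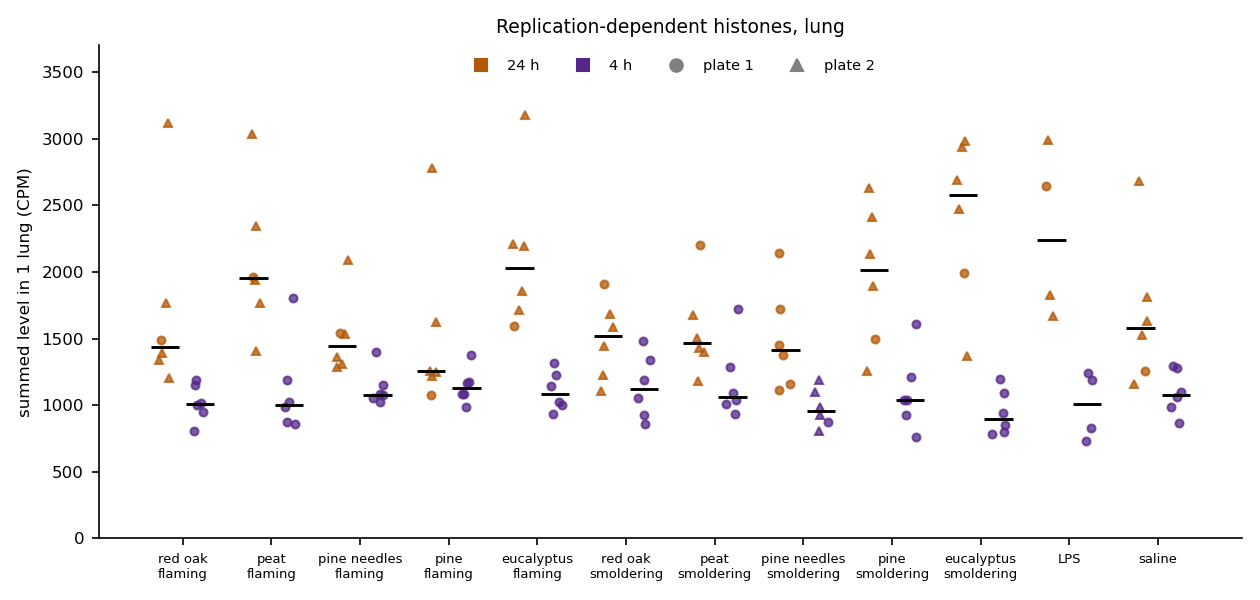
Summed level of the replication-dependent histone genes in each lung, in CPM, by treatment; orange is 24 h, purple is 4 h, circles are plate 1, triangles are plate 2, and black bars are medians. The 24 h median is above the 4 h median in all 12 treatments, from 1254 against 1127 CPM (pine flaming) to 2580 against 896 CPM (eucalyptus smoldering).

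H3 genes were prominent among those that rose, with 5 of 7 called and a median log2 fold change of 1.08. Hist1h3c lay at 28.3 to 170 CPM (median 62.8) in the 70 lungs of 24 h and at 18.0 to 63.8 CPM (median 29.7) in the 70 lungs of 4 h, and rose by 1.08 ± 0.12 (edgeR adjusted p = 3.6e-10). Hist1h3a lay at 9.75 to 90.7 CPM (median 30.2) at 24 h and 5.47 to 43.2 CPM (median 13.6) at 4 h, and rose by 1.10 ± 0.15 (edgeR adjusted p = 5.5e-08). The ranges of the times overlapped in both genes, while every treatment had its higher median at 24 h. Hist2h3b, whose probe gave 21.9% of the replication-dependent sum in lung, lay at up to 1433 CPM (median 325) at 24 h and at 67.95 to 385 CPM (median 145) at 4 h, a rise of 1.09 ± 0.19 (edgeR adjusted p = 3.4e-05).

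Of the H1 genes 4 of 5 rose, Hist1h1d by 1.0 ± 0.19, Hist1h1a by 0.97, Hist1h1b by 0.79 and Hist1h1e by 0.42. Of the H4 genes 7 of 9 rose with a median of 0.62, including Hist1h4n by 0.69 ± 0.12 (edgeR adjusted p = 4.8e-05) and Hist4h4 by 0.40, and of the H2A genes 5 of 9 with a median of 0.76. Hist1h2ab, an H2A gene, lay at 5.79 to 36.3 CPM (median 16.8) at 24 h and 5.56 to 28.8 CPM (median 9.88) at 4 h, and rose by 0.78 ± 0.13 (edgeR adjusted p = 4.2e-06). Of the H2B genes 3 of 13 rose, with a median of 0.38. Hist1h2bg led them, at 38.9 to 215 CPM (median 72.2) at 24 h and 19.3 to 121.9 CPM (median 42.1) at 4 h, a rise of 0.84 ± 0.14 (edgeR adjusted p = 1.0e-05), and the others were Hist1h2bk (0.55) and Hist1h2bb (0.61). Hist1h2bc was not called, at 0.14 ± 0.31.

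H2afx was the gene classed as replication-independent that rose, by 0.72 ± 0.14 (edgeR adjusted p = 0.000236). This class follows from its name, while its annotated transcript matched the stem-loop consensus, as printed above. H2afx had a median of 16.9 CPM at 24 h, within 0 to 43.9 CPM, and a median of 11.8 CPM at 4 h, within 5.002 to 29.6 CPM. H3f3a (0.13), H3f3b (-0.03), H2afz (-0.09) and H2afy (-0.14) were not called. Among replication-dependent genes the median was 0.65 over the 28 with a stem-loop match in the annotated transcript and 0.42 over the 15 without.

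**Figure D5:**
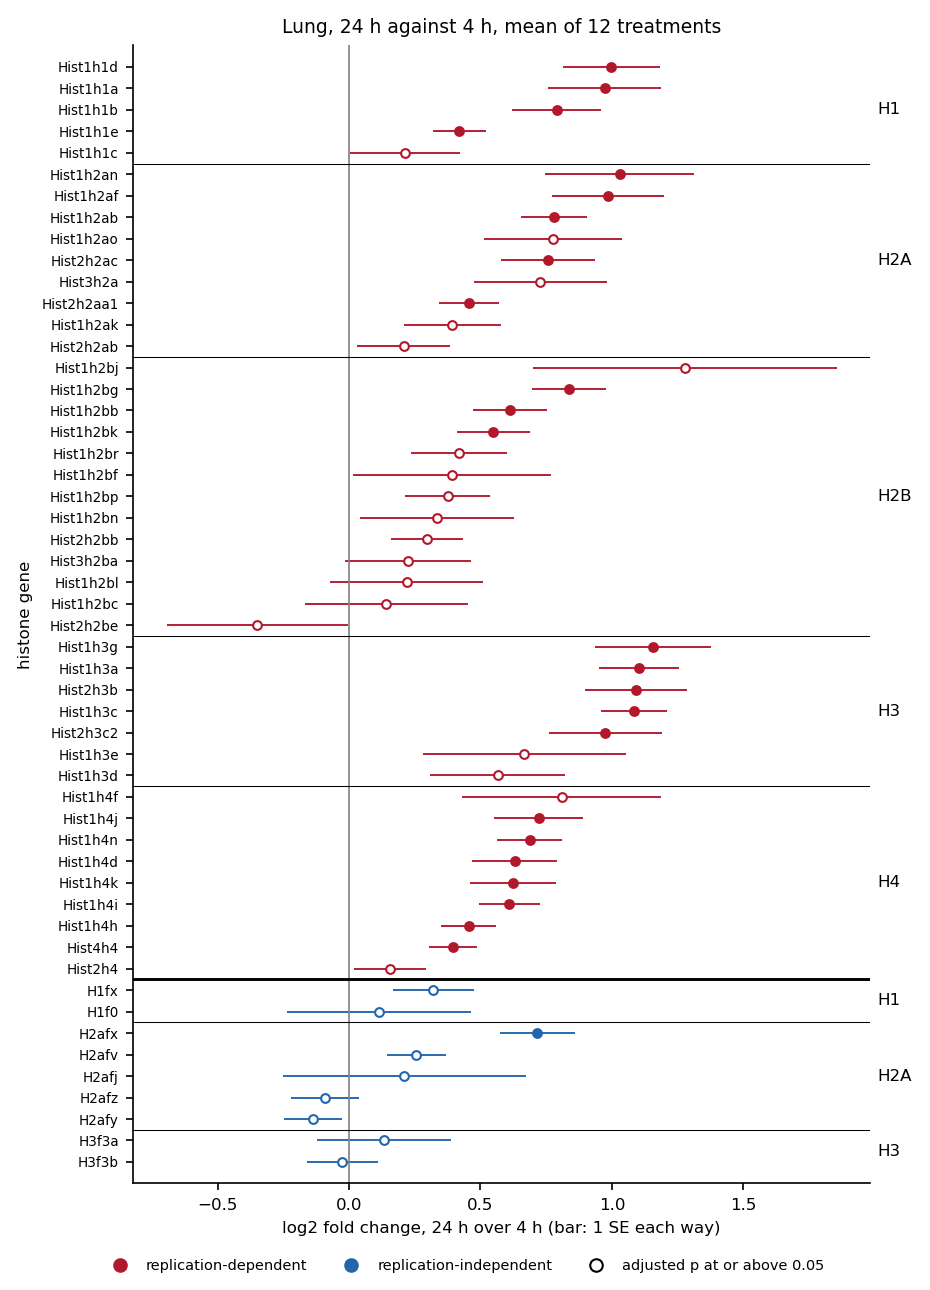
Log2 fold change of each of the 52 histone genes in lung between 24 h and 4 h, averaged over 12 treatments (positive is higher at 24 h); points are estimates, bars are 1 SE each way, red marks replication-dependent and blue replication-independent genes, and open points had an adjusted p at or above 0.05. All 25 filled points lie to the right of 0, and H2afx at 0.72 is the only blue one.

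Genes of S phase and proliferation moved the same way, with 17 of 30 called and all higher at 24 h (median 0.59), among them Rrm2 (0.88), Top2a (0.93) and Cdk1 (0.99). Their summed median was 849 CPM at 24 h and 591 CPM at 4 h, higher at 24 h in 12 of 12 treatments, and their part in the histone rise was not tested. Of the cell type markers, 4 of 10 cardiac muscle genes were called, with Myl7 (-1.44), Ryr2 (-1.19) and Tnni3 (-0.88) lower and Myh7 (0.48) higher at 24 h; their median was -0.84, 9 of 10 were below 0, and their summed median was 422 CPM at 24 h and 535.8 CPM at 4 h. Among lung epithelial markers Sftpc (0.56) rose and Foxj1 (-0.96) fell, 2 of 7 tested, and among macrophage markers Adgre1 (0.68) rose, 1 of 8. No neutrophil, lymphocyte, erythroid or platelet marker was called between the times. The part of these markers in the histone rise was not tested. Most 4 h libraries were on plate 1 and most 24 h libraries on plate 2. Within plate 1 alone, with 17 lungs of 24 h and 65 of 4 h, 24 members were called, all of them among the 25, and the summed medians were 1545 CPM at 24 h and 1057 CPM at 4 h. In saline lungs alone (n = 6 per time) edgeR and DESeq2 called no member, in an edgeR comparison where 0.0% of all genes were called; 13 of 52 members had an unadjusted p under 0.05, all higher at 24 h, against 7.13% of all genes, and the median was 0.52.

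LPS raised 8 of 10 neutrophil markers in lung at each time, with medians of 3.21 at 24 h and 3.14 at 4 h, and moved few histone genes. At 4 h it raised 2 of 52 members, both replication-independent, or 3.85%, against 8.98% of all genes called and 5.48% called higher. H2afz, encoding H2A.Z.1, had 43.7, 43.1, 53.8 and 68.3 CPM in the 4 LPS lungs and 19.4 to 38.2 CPM (median 23.8) in saline lungs. H3f3b, encoding H3.3, had 158, 319, 209 and 238 CPM in the LPS lungs and 91.5 to 128.3 CPM (median 104.3) in saline. In both genes every LPS lung was above every saline lung, and the log2 fold changes were 1.06 ± 0.29 (edgeR adjusted p = 0.00762) and 1.10 ± 0.31 (edgeR adjusted p = 0.00993). H2afz missed the threshold without LPS lung 4 and H3f3b without LPS lung 2. None of the 43 replication-dependent members was called at 4 h by edgeR (1 had an unadjusted p under 0.05, against 20% of all genes), and their median was 0.10. Their sum had a median of 1007 CPM in LPS lungs and 1079 CPM in saline lungs.

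At 24 h LPS raised 3 members, all replication-dependent, or 5.77%, against 12.1% of all genes called and 7.58% called higher, so at neither time were histone genes called more often than other genes. Hist1h1b had 35.4, 28.2, 10.8 and 17.7 CPM in LPS lungs and 6.004 to 11.7 CPM (median 8.74) in saline lungs, a change of 1.42 ± 0.41 (edgeR adjusted p = 0.00925). Hist1h3c had 153, 170, 73.1 and 82.3 CPM in LPS lungs and 41.1 to 92.1 CPM (median 60.5) in saline lungs, a change of 0.93 ± 0.31 (edgeR adjusted p = 0.0322). Hist1h4i, an H4 gene, had 35.4, 39.4, 23.6 and 18.8 CPM in LPS lungs and 9.03 to 20.01 CPM (median 16.7) in saline lungs, a change of 0.82 ± 0.28 (edgeR adjusted p = 0.0378). LPS lungs 1 and 2 were high in all 3 genes and LPS lungs 3 and 4 lay near or within the saline range in at least 1 of them. Without LPS lung 1 no member was called, and without LPS lung 2, saline lung 1 or saline lung 6 only 1 was. Replication-dependent members leaned higher, 35 of 43 above 0, and their sums had medians of 2236 CPM in LPS and 1576 CPM in saline lungs.

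S phase genes beside them rose in LPS lungs at 24 h, 6 of 30 called, including Cdc6 (1.72), Ccne1 (1.59), Cdt1 (1.36) and Tk1 (1.34), whereas at 4 h Gmnn fell by 1.37 along with Bub1 and Cdk2. Macrophage markers rose at 24 h for 4 of 8 genes, Marco (4.39), Adgre1 (2.91), Cd68 (2.04) and Csf1r (1.28), with a median of 1.16 over the list and a sum of 754.8 to 1293 CPM in LPS lungs and 417.9 to 1343 CPM in saline lungs. Cardiac muscle markers fell for 5 of 10 genes, among them Myl7 (-2.99) and Myh6 (-2.24), with all 10 below 0 and a median of -1.97; their sum lay at 181.8 to 200.5 CPM in LPS lungs and 320.4 to 1190 CPM in saline lungs. At 24 h 1 of 10 lymphocyte markers, Nkg7 (2.79), rose and 1 of 7 lung epithelial markers, Scgb1a1 (-0.90), fell. At 4 h 2 of 10 lymphocyte markers, among them Cd79a (-1.57), and 1 of 10 cardiac markers, Myh7 (-0.95), fell. The part of these genes in the histone values was not tested. The difference between the LPS effects at 24 h and at 4 h was itself called for no member by edgeR (0.581% of all genes; 2 members had an unadjusted p under 0.05, against 8.36% of all genes) or by DESeq2, so the members called at the 2 times are not shown to differ in their response.

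Smoke gave few histone calls in lung. Over the 10 smokes at 4 h no member was called against saline by edgeR or DESeq2, where edgeR called 0.0456% of all tests, with 0 to 8 members at an unadjusted p under 0.05 for a smoke (5.05% of all tests) and medians between -0.01 and 0.29. At 24 h 1 call was made over the 10 smokes, where 0.187% of all tests were called. It was H2afz after red oak flaming smoke, a comparison in which 1.75% of all genes were called and 1.56% were called higher. H2afz lay at 25.98 to 148 CPM (median 32.4) in red oak flaming lungs and at 18.1 to 35.5 CPM (median 22.1) in saline lungs, a change of 1.0 ± 0.27 (edgeR adjusted p = 0.0254). A single lung at 148 CPM, replicate 6, with counts for 9886 genes, stood far above the rest, and without it the change was 0.32 and the call was lost, as it was without saline lung 1, 3, 5 or 6. Averaged over all smokes, edgeR called no member at 4 h (0.0% of all genes; 3 members at an unadjusted p under 0.05, against 5.28%) or at 24 h (0.00692% of all genes; 0 members at an unadjusted p under 0.05, against 3.56%), and DESeq2 called none either.

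Between flaming and smoldering smokes, 2 H4 genes were higher at 4 h in lung, where 2.39% of all genes were called and 1.72% were called higher. Hist1h4n lay at 11.9 to 32.5 CPM (median 21.4) in 30 flaming lungs and 6.90 to 25.6 CPM (median 14.9) in 30 smoldering lungs, a change of 0.46 ± 0.12 (edgeR adjusted p = 0.0254). Hist1h4i lay at 8.38 to 31.1 CPM (median 18.3) in flaming lungs and 6.24 to 21.8 CPM (median 14.3) in smoldering lungs, a change of 0.41 ± 0.12 (edgeR adjusted p = 0.0347). The ranges overlapped widely, and no call remained with DESeq2's size factors in place of TMM scaling. At 24 h no member was called between flaming and smoldering smokes by edgeR (0.111% of all genes; 2 members at an unadjusted p under 0.05, against 6.27%) or DESeq2. These lung contrasts average 5 fuels, whereas the heart contrast covers red oak and peat only, so the organs are not compared here.

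At 24 h 13 of 52 members differed among the 10 smokes in lung, or 25% against 18.0% of all genes, and at 4 h none did by edgeR (0.609% of all genes; 2 members at an unadjusted p under 0.05, against 6.52%) or DESeq2. The smallest adjusted p was that of Hist2h2ac, an H2A gene (0.00115), followed by Hist3h2a (0.00245), Hist1h4n (0.00449) and Hist1h2bg (0.00802), all from edgeR. Hist1h2bg lay at 44.6 to 215 CPM (median 141) after eucalyptus smoldering smoke and at 42.3 to 74.9 CPM (median 47.1) after red oak smoldering smoke. Hist1h4n lay at 21.2 to 58.9 CPM (median 38.01) and at 14.2 to 30.2 CPM (median 17.04) in the same groups. When the count of detected genes was a covariate, 1 member was called, and with the 24 h lungs fitted alone none was.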

How the data were processed

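Probe counts of 170 libraries, 140 from lungs and 30 from hearts, were used as the authors deposited them: whole-number counts per probe, with no normalization, for 30146 probes. Per the labels' protocols, RNA was extracted with AllPrep kits and sequenced as single-end reads. The labels name a TempO-Seq assay in one place and a QuantSeq 3′ kit in another, and how each would read mRNAs without a poly(A) tail was not tested. Bowtie and DESeq2 are named in the submitters' processing notes, with versions not given in the sources used here. Probe sequences were not used here, so counts of near-identical histone copies are uncertain.

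Probes were summed per gene symbol (21450 symbols; 7 members had several probes, at most 3). Tests used edgeR 4.0.16 in R 4.3.3 (TMM scaling, filterByExpr, robust quasi-likelihood F test), with Benjamini-Hochberg adjustment over all genes tested and a threshold of 0.05. All 140 lungs were fitted with group and plate (14458 genes, 52 members), all 30 hearts with group (11179 genes, 47 members; H2afj, Hist1h2an, Hist1h2ao, Hist1h2bj and Hist1h3e were not tested) and the 60 libraries of the 30 mice with both organs with group and plate (13746 genes, 51 members; H2afj was not tested). CPM values are after TMM scaling within each of these fits, and a standard error is the log2 fold change divided by the root of F. The scripts were tested on simulated counts. Probes may differ in yield, so a share of a sum or the highest mean of a type describes probe counts only.

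The plates held 82 and 88 libraries: the 4 h lungs were on plate 1 apart from 5 after pine needles smoldering smoke, the 24 h groups had 1 library on plate 1 and the rest on plate 2 apart from pine needles smoldering, and all hearts were on plate 2. Heart and lung with the same animal number came from the same mouse. Totals ranged from 4426180 to 8046021 counts per library, and their number limits precision for members near 1 CPM. Any pair of libraries in a group differed in at least 13635 genes, so no library was a copy of another.

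The members, gene lists and comparisons were chosen with earlier results of these data known. Genes given by sample were those called, smallest p first and up to 6 a comparison, the member with the highest mean count of each type and class, and the 4 largest differences between organs in each direction. Alternatives were DESeq2 1.42.0, its size factors within edgeR, no filter, single probes, other sets of libraries, plate settings, a covariate for detected genes and single libraries left out in turn. Every heart was left out once, but in lung only the saline, LPS and 24 h red oak flaming libraries were. Stem-loops were searched in GENCODE vM21 transcripts and promoter motifs in RefSeq promoters.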

Additional observations from a re-analysis of the deposited data

Results flagged for a closer look

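Of 90 groups of values screened for a library far from the others of its group, 13 had one. The same libraries enter several of these groups of values, so the flags are not independent of one another. In the replication-dependent sum, the highest library of a group stood apart at 1804 CPM after peat flaming at 4 h (the next was at 1186 CPM), at 1399 CPM after pine needles flaming at 4 h (next 1149), at 3119 CPM after red oak flaming at 24 h (next 1768), at 2087 CPM after pine needles flaming at 24 h (next 1545) and at 2782 CPM after pine flaming at 24 h (next 1623), all in lung. In the replication-independent sum, the lung after eucalyptus flaming at 4 h with the lowest sum had 335.1 CPM (next 486.4), and the lung after peat smoldering at 24 h with the lowest sum had 391.9 CPM (next 514.4). The highest such sums that stood apart were 1065 CPM in a red oak smoldering lung at 24 h (next 580.8), 812.7 CPM in a peat flaming heart (next 674.5) and 776.1 CPM in a peat smoldering heart (next 661.5). H2afz had 148.3 CPM in a red oak flaming lung at 24 h (next 35.55) and 38.24 CPM in a saline lung at 4 h (next 24.62). H3f3a had 373.6 CPM in a peat smoldering heart (next 297.4).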

How the results depend on the processing

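Of 308 counts of called members under other settings 222 stayed within 1.5 times the count reported and 86 did not, and of 755 values of 26 named changes 576 kept their call, 179 lost it and 0 changed sign; the cause was not tested for any of them. When the count of detected genes was a covariate, calls numbered 4 for LPS at 4 h, 8 for LPS at 24 h, 1 for the mean smoke at 4 h, 7 for single smokes at 4 h, 0 for single smokes at 24 h, 4 for flaming against smoldering at 4 h, 1 among the 10 smokes at 24 h and 7 for saline lungs at 24 h against 4 h, and in heart 0 for single smokes and 0 for the mean smoke. Without the lungs of few detected genes they were 6 for LPS at 24 h, 1 for single smokes at 4 h, 5 for flaming against smoldering at 4 h and 2 for saline lungs between times. With 1 plate per time they were 0 for LPS at 24 h, 3 and 0 for single smokes at 4 h and 24 h, 5 for flaming against smoldering at 4 h and 1 among smokes at 4 h. With each time fitted alone they were 1 for LPS at 24 h, 4 and 0 for single smokes at 4 h and 24 h, 6 for flaming against smoldering at 4 h, and 1 and 0 among smokes at 4 h and 24 h. DESeq2 gave 1 for flaming against smoldering at 4 h, 3 for single smokes at 24 h, and in heart 29 for single smokes (15 reported), 2 for the mean smoke and 14 for flaming against smoldering. Its size factors within edgeR gave 0 for flaming against smoldering at 4 h and 3 for single smokes at 24 h. Without a filter, the calls were 1 for flaming against smoldering at 4 h, and 9 for single smokes and 0 for the mean smoke in heart. Single probes gave 0 for single smokes at 24 h in lung and 1 for flaming against smoldering in heart, and fits of the compared groups alone gave 7 for single smokes and 9 for flaming against smoldering in heart.

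Leaving out 1 library at a time gave 1 to 24 calls for single smokes, 0 to 5 for the mean smoke and 0 to 10 for flaming against smoldering in heart. In lung it gave 1 to 2 calls for LPS at 4 h, 0 to 4 for LPS at 24 h, 0 to 2 for single smokes at 24 h and 0 to 1 for saline lungs between times. The lungs left out were those of saline and LPS at both times and of red oak flaming smoke at 24 h. For single smokes at 4 h and the mean smoke at both times only saline lungs were left out, and these fits gave 0 calls. The LPS effect at 24 h against 4 h gave 0 calls without any 1 saline or LPS lung. With the animal as a replicate block, pairing the heart and lung of each mouse, 44 members were called between the organs, 42 of them also without the block, and with saline mice alone 24 were. Over the 12 treatments, 24 h against 4 h gave 24 calls on plate 1 alone and 37 with no plate term. Some 24 h groups keep 1 library on a single plate, which is then assumed to vary like the others, and the mean smoke, the burning phases and the differences among smokes could not be fitted on plate 2 alone at 24 h. Members near 1 CPM rest on few counts, so that small changes in them were not detectable at this depth.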
